A study of Rattus norvegicus with 20 samples.

Results

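Blood of 10 male Wistar rats was profiled 1 week before the rats received acetaminophen (APAP), and the sub-group that later showed the most liver injury was compared with the sub-group that showed the least, over the features with a signal at or above the array median. The rats were untreated when this blood was drawn. Of 35 rats dosed by mouth with 1200 mg/kg APAP after a fast of 12 h, 5 were called susceptible and 5 resistant. These were the rats with the highest and the lowest serum alanine transaminase at 24 h, respectively. The groups were thus defined by a later outcome and not by a treatment, a chosen allele or a diet. Wistar rats are outbred, and the genotypes of these rats are not given. Both groups were bled from the retro-orbital plexus under chloral hydrate, red blood cells were lysed, and each RNA was hybridized to 1 Affymetrix rat genome expression array. With every array brought to a median intensity of 1000, 15260 of 31042 features (49.2%) had a mean log2 intensity over the 10 predose arrays at or above 9.97, which is the log2 of 1000, and these well-expressed features are described here. A feature is a probe set, a group of short oligonucleotides that gives 1 signal for 1 gene or for several. The choice used the mean over all 10 rats and not the groups, and all 15260 also passed the exclusion of features under 100 on every predose array. Of the well-expressed features, 11834 carried 1 gene symbol, for 8806 genes, 310 carried several symbols and 3116 carried none. The features nearest to the threshold were those of Galnt10, Mamdc4 and Dicer1 inside, with differences between the sub-groups of 0.08, -0.21 and -0.14, and those of Ppp1r36, 1398695_at (no symbol) and Ccser1 outside, with 0.18, 0.28 and -0.26 on the log2 scale. Of the features inside, 13500 reached 1000 on every one of the 10 predose arrays and 1760 fell under it on at least 1.

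APAP is cleared in the liver by glucuronidation and sulfation, and a smaller share is oxidized by cytochrome P450 enzymes to a reactive quinone imine that glutathione traps. When glutathione runs out, the quinone imine binds mitochondrial proteins, stress kinases are activated and hepatocytes die by necrosis, after which innate immune cells enter the tissue. Blood after red cell lysis carries RNA of neutrophils, monocytes, lymphocytes and platelets with the reticulocytes that escaped lysis, and it carries little liver RNA, so that a difference before dosing would be one between rats in their circulating cells. In bulk blood, fewer cells of a type and less RNA per cell cannot be told apart.

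The predose arrays resembled each other closely over the well-expressed features, with Pearson correlations of 0.967 to 0.987 between pairs. The mean correlation of resistant rat 5 (R5) with the other arrays was 0.9721, against 0.9797 to 0.9818 for R1 to R4 and 0.9744 to 0.9811 for the susceptible rats S1 to S5, so that the main counts are also given without R5. For actin, the log2 signal at the 3' end minus that at the 5' end, which grows as RNA is degraded, was 0.773 to 0.849 in the resistant and 0.82 to 0.949 in the susceptible rats. Bacterial trp control features, which match no rat RNA, lay between 3.68 and 8.12, under the threshold on every predose array. Genes of leukocytes and platelets lay high in the intensity range. So did erythroid genes, such as Hbb and Alas2 with mean log2 intensities of 18.21 and 17.42 over the 10 predose arrays. The markers S100a9 (neutrophils), Lyz2 (monocytes and neutrophils), Cd3g (T cells), Prf1 (cytotoxic cells) and Pf4 (platelets) had mean log2 intensities of 18.44, 18.38, 17.09, 16.37 and 18.81 in resistant rats and of 18.41, 18.40, 17.08, 16.39 and 18.81 in susceptible rats. Of 15 measured genes of liver-secreted proteins, only Hp, encoding haptoglobin, was well expressed.

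Differences between susceptible and resistant rats were small for well-expressed genes. The median absolute difference was 0.0783 on the log2 scale, 90% of the features lay under 0.228 and 99% under 0.45, and 14059 features (92.1%) differed by less than 0.25. The other 15156 features tested, those of lower signal, had a median absolute difference of 0.382 and a 99th percentile of 1.94. A mean difference of 2-fold or more was seen on 5 well-expressed features against 2023 of the others. The median SD within a sub-group was 0.213 for well-expressed and 0.987 for the other features, and the smaller differences went with this smaller spread between arrays. With 1 array per rat, variation between rats and measurement noise cannot be told apart. The 95% confidence interval of limma lay within 2-fold in both directions for 14880 well-expressed features (97.5%), against 21.1% of the other features. It lay within 1.5-fold for 12165 (79.7%). For the remaining 380 well-expressed features the interval reached a difference of 2-fold.

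**Figure D1:**
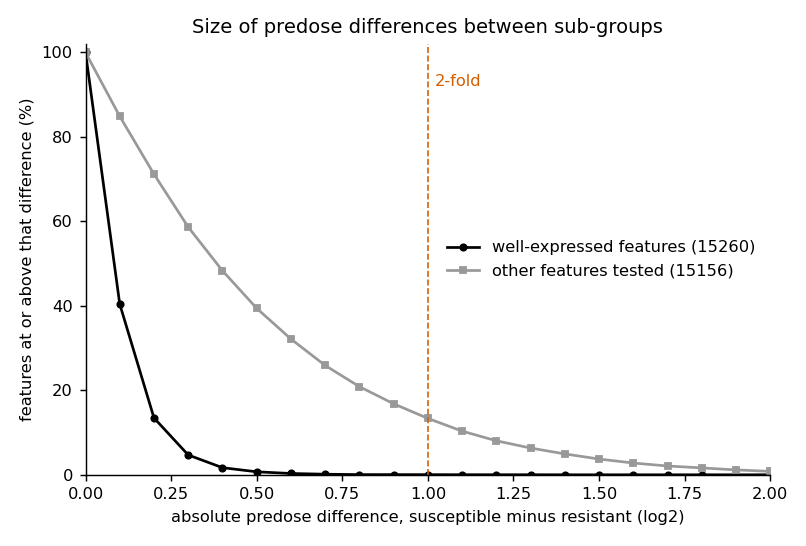
Share of features (y axis, %) whose absolute mean predose difference between 5 susceptible and 5 resistant rats was at or above the value on the x axis (log2), for the 15260 well-expressed features (circles) and the 15156 other features tested (squares). At the 2-fold line the curve of the well-expressed features has fallen to 0.03277% and that of the others to 13.35%.

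No well-expressed feature passed a Benjamini-Hochberg adjusted p of 0.05 in limma, where 0.00329% of the 30416 features tested were called, a single feature below the threshold. The smallest adjusted p among the well-expressed features was 0.615, and 3 features, of Rpl39, Gpr107 and Nans, had an adjusted p under 0.9. Nans, which makes sialic acid and was named after its values were seen, differed by 0.60 on that feature, which may cross-hybridize, and by 0.33 and -0.05 on its other well-expressed features. At an unadjusted limma p under 0.05 there were 224 features, 96 higher and 128 lower in susceptible rats. This is 1.47% of the well-expressed features, whereas 6.03% of the other features and 3.74% of all features tested reached it (1.66% higher and 2.08% lower). The count depends on the spread that limma lends to each feature. It was 394 when the well-expressed features were fitted alone and 340 with the methods' test, which borrows no spread, and in both of these the number past an adjusted p of 0.05 was again 0. Without R5 there were 290 features at an unadjusted p under 0.05 and 0 after adjustment. The susceptible rats all lay above the resistant rats on 22 features and all below them on 37, which is 0.387% of the well-expressed features against 0.529% of all features tested.

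Rpl39, encoding a small protein of the large ribosomal subunit, had the smallest p (limma adjusted p = 0.615). The log2 intensity of its feature 1367934_at was 11.99, 11.72, 11.67, 11.81 and 12.09 in R1 to R5. In S1 to S5 it was 12.66, 12.40, 12.39, 12.84 and 12.80. Every susceptible rat lay above every resistant rat, with means of 12.62 ± 0.21 and 11.86 ± 0.18 (SD, n = 5), a difference of 0.76 (95% interval 0.45 to 1.07). Ribosomal protein genes have many near-identical processed copies, and the signal of 1 probe set may include them. Of 41 well-expressed ribosomal protein genes, Rpl39 was the only one at an unadjusted p under 0.05, and the median difference of the 41 was 0.00361. The difference of Rpl39 was not seen in the postdose blood of the same rats, where the log2 intensity was 11.61 to 13.07 in resistant and 11.98 to 13.12 in susceptible rats and the groups overlapped (difference 0.07).

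Gpr107, encoding a membrane protein of the Golgi and endosomes, was the gene with the smallest p among those lower in susceptible rats (limma adjusted p = 0.864). Its feature 1399145_at measured 10.76, 11.07, 11.12, 11.03 and 11.07 in R1 to R5. It measured 10.71, 9.94, 10.28, 10.12 and 10.07 in S1 to S5. The lowest resistant rat, R1, and the highest susceptible rat, S1, were 10.76 and 10.71, so that the groups were separated by little, and the difference of the means was -0.79 (95% interval -1.14 to -0.44). A second well-expressed feature of Gpr107 differed by -0.17 with an unadjusted limma p of 0.241, and the postdose difference of 1399145_at was 0.08.

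With each gene taken by its feature of highest mean, the next genes in order of p had an adjusted p of 1 in limma. Lower in susceptible rats, with no overlap between the groups, were Pi4k2a, a lipid kinase of the trans-Golgi network (11.91 ± 0.09 and 11.51 ± 0.13 in resistant and susceptible rats), Sirt4, a mitochondrial sirtuin (10.45 ± 0.09 and 10.01 ± 0.21), and Ccdc134 (11.07 ± 0.15 and 10.69 ± 0.12). Imp3, a component of the U3 ribonucleoprotein that processes ribosomal RNA, was 13.99 ± 0.11 in resistant and 13.63 ± 0.12 in susceptible rats. Dusp12, a dual-specificity phosphatase, was 10.87 ± 0.17 and 10.45 ± 0.15, a difference of -0.42. After dosing the difference of Dusp12 was -0.41 (limma adjusted p = 0.572) and that of Pi4k2a was 0.46, opposite to its predose direction (limma adjusted p = 0.63), both with overlapping groups. Itga3, the alpha 3 integrin subunit, differed by -0.66 predose and by -0.77 postdose, with overlapping groups in both.

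On the other side, Traf3ip2, the adaptor of the interleukin-17 receptor, was 11.33 ± 0.08 in resistant and 11.64 ± 0.06 in susceptible rats, and Shld2, a subunit of the shieldin complex that protects broken DNA ends, was 11.53 ± 0.13 and 11.87 ± 0.10, both without overlap. A second well-expressed feature of Shld2 differed the other way, by -0.26. Mef2b, a transcription factor of germinal centre B cells, was 10.46 ± 0.17 and 10.81 ± 0.10 with a slight overlap. Flt3, the receptor of a growth factor for dendritic cells and progenitors, was 10.11 ± 0.40 in resistant and 10.68 ± 0.28 in susceptible rats, and Deptor, an inhibitor of mTOR kinase, was 10.82 ± 0.30 and 11.24 ± 0.18. The differences of Flt3 and Deptor were 0.57 and 0.42 before dosing and -0.90 and -0.69 after it, so that the direction turned. The difference between the 2 time points was tested for all features in a fit of the 20 arrays, and it passed an adjusted p of 0.05 for 0 well-expressed features (smallest adjusted p = 0.158, limma). That fit took the 20 arrays as independent, although both bleeds came from the same rats. It did not use the change within each rat.

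**Figure D2:**
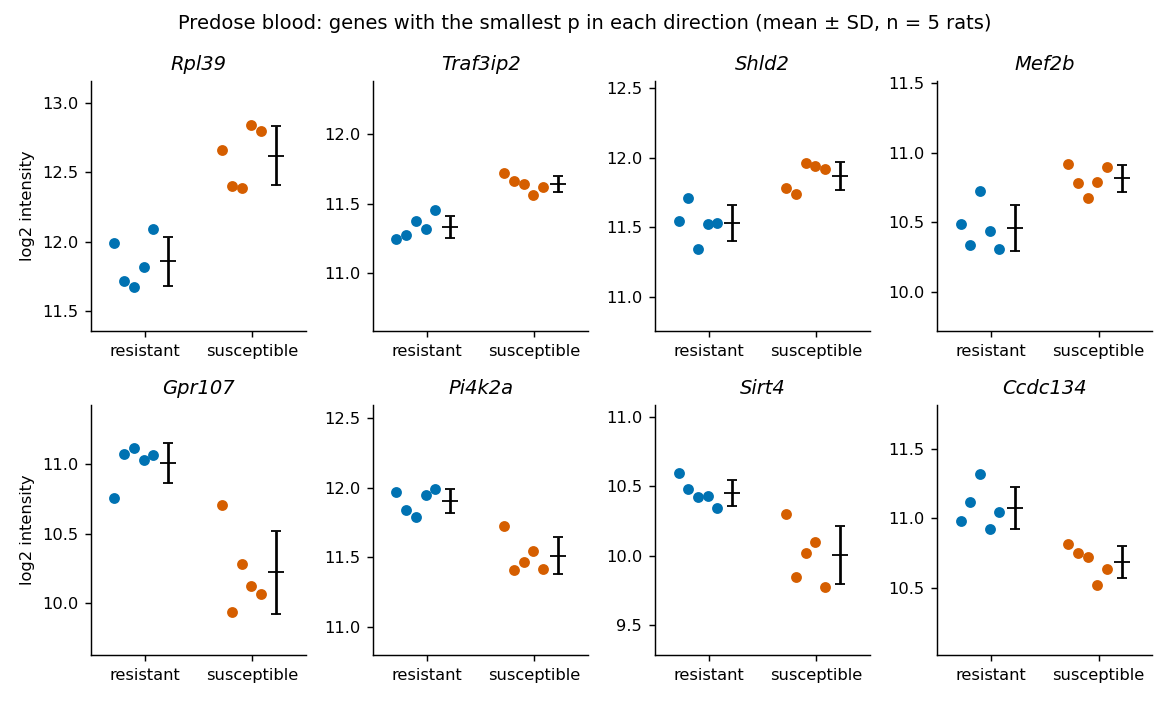
Log2 intensity (y axis) in predose blood of the 5 resistant and 5 susceptible rats. Each point is 1 rat, in the order 1 to 5, with the mean and SD beside the points. Shown are the 4 genes of the smallest p that were higher (top) and lower (bottom) in susceptible rats. Each gene was taken by its feature of highest mean. The means of Rpl39 are 11.86 and 12.62 and those of Gpr107 11.01 and 10.22 in resistant and susceptible rats, the other differences are under 0.5 in size, and every panel spans the same height on the y axis.

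The selection stated in the methods, a test with unequal variances at an unadjusted p under 0.05 with an absolute fold change of at least 2, kept 2 well-expressed features and 368 others, with 1.22% of all features tested. One was Hbe2, a beta-type globin of the embryo, whose feature may also take signal from the adult beta globins. Its log2 intensity was 8.43, 8.07, 10.43, 9.67 and 10.27 in R1 to R5 and 10.70, 9.97, 10.60, 10.65 and 11.64 in S1 to S5. R1 and R2 were low, the other rats overlapped, and the difference of 1.34 had a wide interval of 0.19 to 2.48 (limma adjusted p = 1). After dosing the order was reversed, with 10.51 to 11.49 in resistant and 9.56 to 11.04 in susceptible rats. The other was 1396762_at, which has no symbol, with a difference of 1.07 predose and -0.85 postdose. Without R5 the methods' selection kept 0 well-expressed features.

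The remaining features with a mean difference of 2-fold or more, named here after their values were seen, were those of Rph3al, L3hypdh and Tubb4a. Rph3al, an effector of Rab proteins in exocytosis, differed by -1.36, which was the largest absolute difference of all, with S2 and S4 at 9.71 and 8.44 and the other 8 rats between 11.60 and 12.45. L3hypdh, a dehydratase of hydroxyproline, differed by 1.15 with R2 and R3 at 7.95 and 8.07. Tubb4a, a beta tubulin, differed by 1.07 with R1 and R3 at 7.97 and 9.14. In each of these cases at least 1 array fell below 9.97, and the adjusted p was 1 in limma.

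The study named 10 genes that it chose on these samples, so that their direction here is not independent evidence. It also measured them by PCR in predose blood of a separate set of rats, and some of them in liver after dosing. Those measurements are not among these arrays. Of the 9 named genes that the annotation used here ties to a feature, Sbf1 and Incenp had a well-expressed feature. Sbf1, encoding a catalytically inactive phosphatase of the myotubularin family, measured 11.05, 11.30, 11.29, 11.45 and 11.07 in R1 to R5 and 11.16, 10.92, 10.86, 10.71 and 10.59 in S1 to S5 on 1372968_at. S1 lay above R1 and R5 and the other susceptible rats lay below all resistant rats. The difference was -0.38 (95% interval -0.69 to -0.08, limma adjusted p = 1). It was also -0.38 after dosing, where resistant rats measured 11.27 to 11.50 and susceptible rats 10.82 to 11.14 without overlap (limma adjusted p = 0.351). The feature of Sbf1 with the larger predose difference, 1377174_at at -1.76, was below the threshold with means of 8.85 and 7.09. Also below the threshold, 1397522_at differed by -0.33 and 1390143_at the other way, by 0.43. Incenp, a subunit of the chromosomal passenger complex of mitosis, differed by -0.10 on its well-expressed feature (95% interval -0.44 to 0.25) and by -2.12 on 1378669_at, which was below the threshold. Its feature 1397539_at, also below the threshold, differed by -0.27.

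Genes of the highest signal differed little between the sub-groups. Rps29 of the small ribosomal subunit, Pf4 (platelet factor 4), COX2 of the mitochondrial genome, Tmsb4x (thymosin beta 4, which binds actin) and B2m, the light chain of MHC class I, differed by 0.02, 0.00, 0.06, -0.00 and 0.02. Their intervals reached no further than -0.25 to 0.29. These features lay at the top of the intensity range and moved together by array, with R1 and S4 among the highest, and whether their signal was near saturation was not tested.

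In 32 gene lists for blood cell types, immunity, stress, APAP handling and metabolism, 518 genes had a well-expressed feature, taking for each gene the feature with the highest mean. Of these, 1 gene (Rpl39) reached an unadjusted limma p under 0.05 and did not overlap between the groups, where 1.47% and 0.387% of well-expressed features and 3.74% and 0.529% of all features tested did so. The interval lay within 2-fold for 491 genes (94.8%), as for 97.5% of well-expressed features. The median absolute difference of the 518 genes was 0.0624, and list medians ranged from -0.259 to 0.0883 over the 29 lists with at least 5 genes, beside a median of -0.0215 over all well-expressed features and of -0.02 over all features tested.

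Markers of the blood cell types overlapped between the sub-groups. The mean level of 10 neutrophil genes was 13.35 to 13.64 in resistant and 13.20 to 13.75 in susceptible rats, with a median difference of -0.0408. For 18 T cell genes the ranges were 14.87 to 15.04 and 14.85 to 14.99, for 10 B cell genes 14.22 to 14.79 and 14.27 to 14.54, and for 14 genes of natural killer and cytotoxic cells 13.77 to 14.42 and 13.79 to 14.13. The antigen-presenting MHC class II genes (8) were 15.45 in R5 and 15.88 to 16.25 in the other rats. Platelet genes (15) ranged from 15.72 to 16.05 in resistant and 15.64 to 16.05 in susceptible rats, and erythroid genes (15) from 15.11 to 15.43 and 14.82 to 15.72. The median difference of the erythroid list, 0.0883, was the highest of the 29 lists with at least 5 genes, with S4 and S5 highest at 15.58 and 15.72 and S2 lowest at 14.82. Alas2, the first enzyme of heme synthesis in erythroid cells, was likewise high in S4 and S5 and low in S2, at 17.86, 17.83 and 16.93 against 17.13 to 17.57 in resistant rats.

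The genes that handle APAP and its reactive metabolite were measured in blood cells, not in liver. Of 30 measured genes of APAP metabolism and transport 15 were well expressed, 0 reached an unadjusted p under 0.05, and the median difference was -0.0301. With 1.47% of well-expressed features at that p, a count of 0 among 15 genes does not set the list apart. Gstp1, a glutathione transferase of leukocytes, differed by -0.10 (95% interval -0.35 to 0.15), Ugp2, which makes the UDP-glucose used for glucuronidation, by -0.03 (-0.24 to 0.18), and Papss1, which makes the sulfate donor of sulfation, by 0.06 (-0.24 to 0.35). The largest difference of the list was that of Abcg2, an efflux transporter of sulfate and glucuronide conjugates, at 10.57 ± 0.37 in resistant and 11.06 ± 0.36 in susceptible rats, whose interval of -0.02 to 1.01 reached 2-fold.

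Glutathione synthesis and the targets of NRF2, the regulator of antioxidant genes, gave the same picture with 33 well-expressed genes, a median difference of 0.00838 and an interval within 2-fold for all 33. Gclc, the catalytic subunit of the enzyme that limits glutathione synthesis, was 12.51 ± 0.06 in resistant and 12.52 ± 0.06 in susceptible rats. Its modifier subunit Gclm was 14.56 ± 0.22 and 14.86 ± 0.69, with S4 and S5 highest at 15.22 and 15.89, the rats with the highest erythroid levels. Nfe2l2, which encodes NRF2, Gpx1 (glutathione peroxidase) and Txn1 (thioredoxin) differed by -0.13, 0.00 and 0.03. Of the heat shock and protein folding list, 23 of 24 genes lay within 2-fold and the median difference was -0.0719. Atf4, a transcription factor of the integrated stress response, was 17.32 ± 0.06 in resistant and 17.18 ± 0.05 in susceptible rats (interval -0.32 to 0.05).

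Lists of the response to injury were likewise without a called gene. The 20 genes of Toll-like receptors and NF-kappaB, the 7 of the inflammasome and the 20 of stress kinases all had intervals within 2-fold, with medians of -0.0561, 0.0344 and 0.0132. Of 16 cytokines and receptors 14 lay within 2-fold. Il1b, encoding interleukin-1 beta, was 16.33 ± 0.43 in resistant and 16.18 ± 0.50 in susceptible rats. Among 8 growth factor and receptor genes of tissue repair, Vegfa had the most negative difference at -0.35 (interval -0.84 to 0.15). In the immediate-early list, whose genes are transcribed rapidly after many stimuli, Fosb differed by -0.79 (interval -1.76 to 0.18) with R1 at 10.64 and R4 at 12.98, whereas Fos and Egr1 differed by 0.10 and -0.00. The lists of replication (21 genes), mitosis (13), proteasome (32), oxidative phosphorylation (45), glycolysis (18), fatty acid oxidation (11), glucocorticoid targets (14) and circadian clock (14) had medians between -0.0452 and 0.0473.

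**Figure D3:**
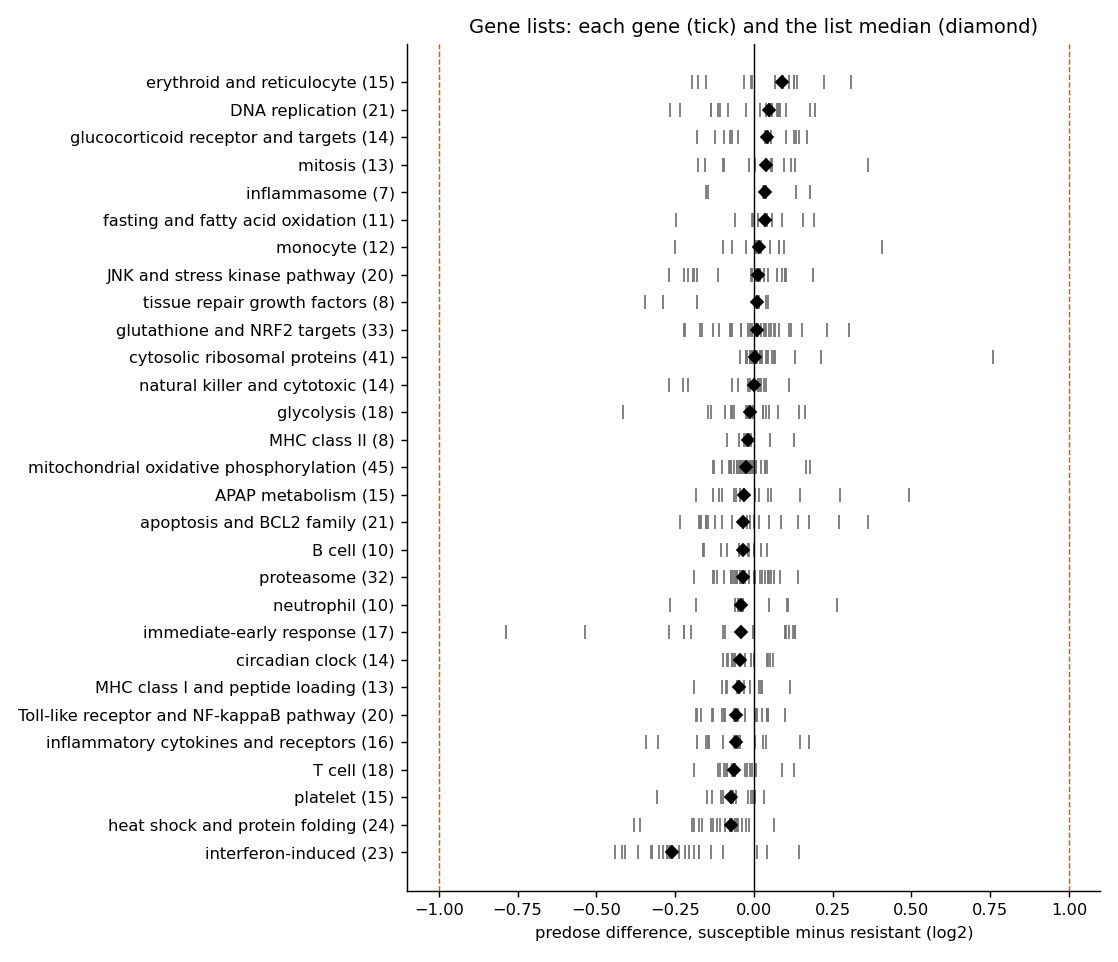
Predose difference between susceptible and resistant rats (x axis, log2) for each well-expressed gene (ticks) in 29 gene lists, with the list median as a diamond and the number of genes in brackets. Dashed lines mark 2-fold, the diamonds lie between -0.259 (interferon-induced) and 0.0883 (erythroid and reticulocyte), and the tick furthest to the right is Rpl39 at 0.76.

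Genes induced by interferon varied more over the 10 rats than well-expressed features did in general. Type I interferons turn on antiviral genes, many of which carry an interferon-stimulated response element in their promoters, and monocytes are among the cells that respond strongly. The SD over the 10 predose rats had a median of 0.671 for the 23 well-expressed genes of this list, against 0.21 for all well-expressed features, and 19 of the 23 exceeded the 90th percentile of 0.382. Of 8806 genes ranked by this spread, 13 of the list were among the first 100. Isg15, a ubiquitin-like protein, measured 17.09, 18.07, 17.68, 17.47 and 15.76 in R1 to R5 and 17.54, 17.41, 15.67, 15.37 and 17.99 in S1 to S5. R5, S3 and S4 were low and the other 7 rats lay at 17.09 or above, so that low rats were found in both sub-groups. The chemokine Cxcl10 measured 10.73, 13.47, 12.45, 12.83 and 10.57 in R1 to R5 and 13.49, 11.94, 11.41, 10.12 and 11.58 in S1 to S5 and the sub-groups overlapped along most of their range.

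The same rats were low across the list. R5, S3 and S4 were the 3 lowest rats for 17 of the 23 genes (73.9%), while this was so for 770 of all well-expressed features (5.05%), and R2 was the highest for 16. These rats were picked out after the values had been seen, and the shares are a description. The actin 3' minus 5' signal was 0.949 in S3 and 0.898 in S4, the highest predose values, and 0.773 in R5, the lowest. A part of RNA quality in the low levels was not tested. The mean level of the list was 14.35, 15.44, 14.89, 14.99 and 13.75 in R1 to R5 and 15.11, 14.71, 13.90, 13.68 and 14.89 in S1 to S5. Its median difference between the sub-groups was -0.259, the lowest of the 29 lists, with 20 of 23 genes lower in susceptible rats, 0 genes at an unadjusted p under 0.05 and 0 without overlap. Leaving out 1 rat moved that median from -0.48 without R5 to -0.04 without R2. For 15 of the 23 genes the interval reached 2-fold. Rsad2, which encodes the antiviral enzyme viperin, and Ifit1 did not follow the other genes, with differences of 0.14 and 0.04 and an SD over the rats of 0.24 each on their features of highest signal.

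Markers of monocytes moved with the interferon list. The mean level of 12 monocyte genes was lowest in R5 at 14.11, S3 at 14.48 and S4 at 14.58, and it was 14.88 to 15.11 in the other 7 rats. All 12 genes had their lowest value in R5, and Lyz2 and Cybb still reached 18.15 and 16.5 there. The low level of R5 was not particular to monocyte genes. R5 also had the lowest mean level in lists such as B cell, MHC class II, oxidative phosphorylation, ribosomal proteins and DNA replication. S5 was the lowest for T cell and neutrophil genes. R5 was also the array with the lowest mean correlation with the others. T cell genes spanned 0.193 over all 10 rats and neutrophil genes 0.554, and neither list had R5, S3 and S4 as its 3 lowest rats, although R5 and S3 were among the 3 lowest for neutrophils. The pattern was not limited to the monocyte and interferon lists, although some lists share genes, such as Il1b in those of cytokines and the inflammasome. Of the 29 lists with at least 5 genes, 7 had R5, S3 and S4 as the 3 lowest rats, which were these 2 lists and those of MHC class I, cytokines, inflammasome, stress kinases and proteasome. For MHC class I the levels were 14.21 in R5, 14.43 in S3 and 14.40 in S4. The part of the monocyte level in the interferon levels was not tested. When the interferon level of each array was added to the limma fit as a covariate, 237 well-expressed features had an unadjusted p under 0.05 and 0 passed after adjustment.

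**Figure D4:**
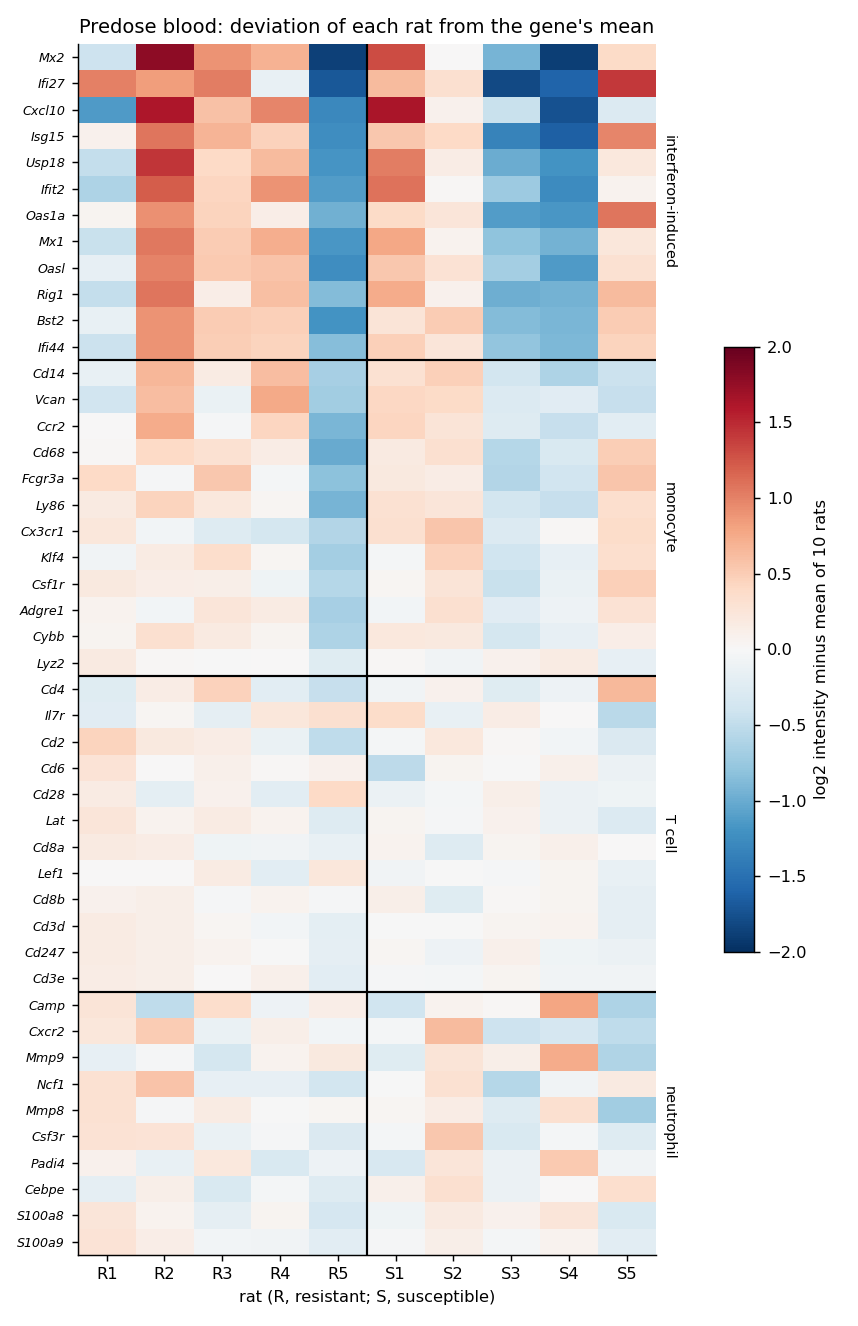
Log2 intensity of each rat minus the mean of the 10 rats (colour scale) in predose blood for the 12 genes with the largest spread of the interferon-induced, monocyte and T cell lists and the 10 neutrophil genes, with rats in columns (R, resistant, S, susceptible). Columns R5, S3 and S4 are blue over the interferon-induced genes and, more faintly, over the monocyte genes, and the T cell and neutrophil blocks are pale.

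The promoters of the interferon-induced genes are shown as a description of the list. RefSeq promoter windows of 300 bases (250 before and 50 after the annotated start, build GRCr8) were found for 17 of the 23 genes. The letters GAAANNGAAA or the reverse complement TTTCNNTTTC, the core of the interferon-stimulated response element, were in 12 of the 17 windows (70.6%), in 281 of 8230 windows of well-expressed genes (3.41%) and in 1312 of all 33469 windows (3.92%). Parts of 4 windows are given 5′ to 3′ on the strand of the gene, with the motif in capitals, where overlapping matches run together. The part of Ifi27 is chr6:128355103-128355277 on the plus strand, that of Cxcl10 chr14:15988816-15988872 on the plus strand, that of Oas1a chr12:41330385-41330480 on the plus strand and that of Bst2 chr16:18255043-18255138 on the minus strand. A match is a description of the letters, not of binding in these cells. Because the list holds genes chosen as interferon-induced, the share with the motif does not bear on how they varied between these rats.
Ifi27: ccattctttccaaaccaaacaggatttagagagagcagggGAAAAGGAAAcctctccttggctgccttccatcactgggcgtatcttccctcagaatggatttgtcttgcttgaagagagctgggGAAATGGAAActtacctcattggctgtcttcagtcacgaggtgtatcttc
Cxcl10: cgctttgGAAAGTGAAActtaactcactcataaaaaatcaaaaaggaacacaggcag
Oas1a: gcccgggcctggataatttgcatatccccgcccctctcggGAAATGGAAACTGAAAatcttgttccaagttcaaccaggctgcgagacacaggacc
Bst2: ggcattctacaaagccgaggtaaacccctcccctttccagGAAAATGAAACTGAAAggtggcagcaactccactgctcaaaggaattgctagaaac

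Ifi27, a small membrane protein induced by interferon, had the largest spread of these 4 genes, with 17.45, 17.27, 17.47, 16.30 and 14.75 in R1 to R5 and 17.09, 16.77, 14.64, 14.85 and 17.86 in S1 to S5. Oas1a, which makes the oligoadenylate that activates RNase L, and Bst2 (tetherin, which holds virus particles at the cell surface) had an SD over the rats of 0.81 and 0.74. Their differences between the sub-groups were -0.41, -0.24 and -0.21 for Ifi27, Oas1a and Bst2.

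The 12 genes of the largest spread over all rats had SDs of 1.13 to 1.80, and 7 of them had R5, S3 and S4 as their 3 lowest rats. These 7 were Slc27a3 (an acyl-CoA synthetase), Spats2l, Mx2 and Ifi27 of the interferon response, Slamf9 (a receptor of the SLAM family), Rtp4 and Ms4a6a. Slc27a3 ran from 6.11 in R5 to 11.93 in R2, and its means in the sub-groups were 10.01 ± 2.34 and 10.01 ± 1.36. Ccl2, the chemokine that attracts monocytes, was 10.40 in R1 and 11.28 in S3 but 14.49 in R2 and 13.71 in S1, with a difference between the sub-groups of -0.30 (interval -2.14 to 1.53). For genes of such spread the 5 rats in a sub-group bound the difference only loosely.

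Postdose arrays of the same 10 rats, drawn 24 h after APAP, show what these features measured once the sub-groups had diverged. The methods give the inferior vena cava as the site of this bleed while the labels name the retro-orbital plexus for both bleeds, so that site and day may differ from predose blood in both sub-groups alike. In postdose blood 33 well-expressed features passed an adjusted p of 0.05 in limma, 32 of them higher in susceptible rats, with 0.112% of all features called. This count was 2 on intensities as deposited, 1 with the replicate block, 0 with the methods' test and 0 to 52 when 1 array was left out, and the adjusted p values of single genes given here rest on the same fit. The fall to 0 came without postdose arrays 1 or 2 of the resistant or 1 or 5 of the susceptible rats. Before dosing, the same 33 features had differences of -0.487 to 0.0504, 32 of them below 0 where 58% of all well-expressed features were below 0, and 0 of the 33 had an unadjusted predose p under 0.05.

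Interferon-induced genes made up 8 of the 33 features. Of the 23 genes in the list, 20 were higher in every susceptible than in every resistant rat after dosing, where 1.57% of all features tested were, and 0 of the 23 had separated before dosing. Isg15 was 15.56 to 16.32 in resistant and 17.59 to 18.48 in susceptible rats after dosing, a difference of 2.21 (limma adjusted p = 0.0135). Cxcl10 was 8.77 to 10.73 and 12.60 to 14.62, a difference of 3.71 (limma adjusted p = 0.0314). Ccl2, which is not in the list, was 9.50 to 10.66 and 12.59 to 13.79, a difference of 3.17 (limma adjusted p = 0.0135). For all 3 genes the sub-groups had overlapped before dosing. In resistant rats Ccl2 reached 14.49 before dosing, above every postdose value of either sub-group.

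The 224 features with an unadjusted predose p under 0.05 were followed to the postdose arrays, which were not used to choose them. Of these, 97 (43.3%) had the same direction of difference after dosing, as had 7026 of all well-expressed features (46%). There were 24 (10.7%) with an unadjusted postdose p under 0.05, 11 in the same and 13 in the opposite direction, beside 8.71% of all well-expressed features and 8.09% of all features tested. Their median absolute difference was 0.384 before and 0.161 after dosing, and 0 passed the adjusted postdose p of 0.05 in limma. The choice by predose p favours features with a large predose difference. The smaller postdose value therefore does not show that a difference was lost after dosing.

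**Figure D5:**
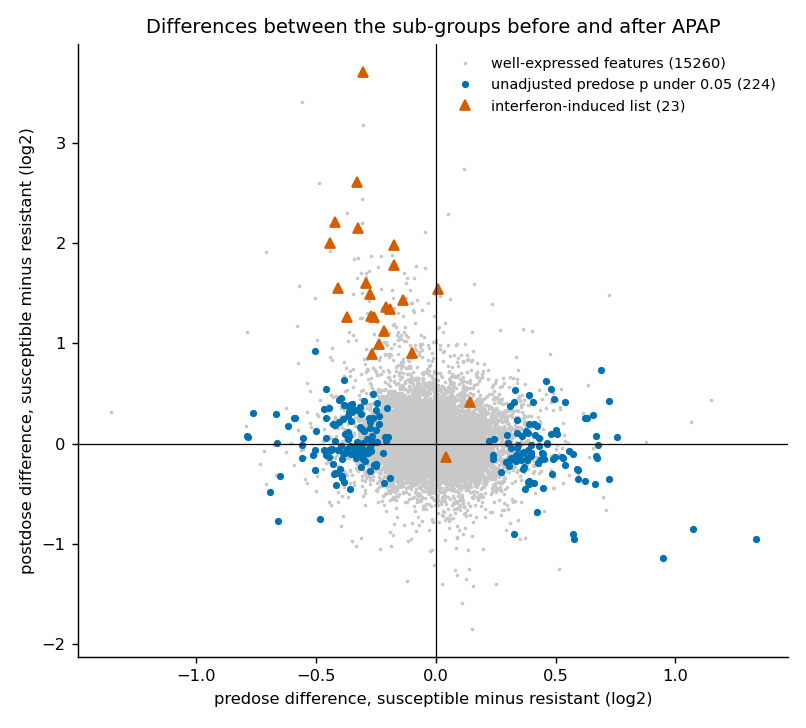
Difference between susceptible and resistant rats before dosing (x axis, log2) and 24 h after APAP (y axis, log2) for the well-expressed features, with the 224 features of unadjusted predose p under 0.05 in blue and the 23 interferon-induced genes as orange triangles. The blue points lie on both sides of 0 on the y axis, and the triangles lie near or left of 0 on the x axis and mostly high on the y axis, with a median postdose difference of 1.43.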

How the data were processed

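The deposited values were linear intensities per probe set of Affymetrix rat genome expression arrays, which the authors handled in ArrayTrack with each chip scaled to a median of 1000. The software behind the deposited intensity is not given in the sources used here, and the deposited predose medians were 198 to 211, so each array was scaled again to a median of 1000 after 57 control features were left out. Features under 100 on all predose arrays were excluded, leaving 30416, and log2 values were fitted with limma 3.58.1 in R 4.3.3 over the 10 predose arrays (postdose arrays separately), with Benjamini-Hochberg adjustment over all features tested. The fits were tested on simulated data. Symbols were updated through RefSeq gene IDs for 20758 of 20826 features, and each listed gene is represented by its feature of highest mean. Named genes were those with the smallest p, the largest differences, the highest levels or the largest spread and fixed list genes. Other list genes, such as Abcg2, Gclm, Fosb and Vegfa, were named after their values were seen. Members and lists were chosen with earlier results of these data known. The labels call the arrays biological replicates, and replicate numbers were not taken to pair rats. The number of arrays limits the precision. Alternatives covered scaling, filters, the threshold, the spread model, the test, the replicate block and leaving out each array.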

Additional observations from a re-analysis of the deposited data

Results flagged for a closer look

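In 264 groups of 5 values, 9 held an array far from the other 4 (gap over range above 0.71), where chance gives about 5%. For single genes, Gpr107 was 10.76 in R1 against 11.03 to 11.12 in the other resistant rats, and Nr4a2 was 10.78 in R1 against 11.92 to 12.34. In susceptible rats, L3hypdh was 9.745 in S2 against 10.66 to 10.88, Hbb was 17.95 in S5 against 18.23 to 18.33, and Sod2 was 16.67 in S4 against 16.84 to 16.88. R5 lay below the other resistant rats in the mean level of the monocyte list (14.11 against 14.88 to 15.1), of the inflammasome list (14.01 against 14.52 to 14.7) and of the list of fasting and fatty acid oxidation (12.94 against 13.16 to 13.24). Its mean correlation with the other predose arrays was 0.9721, against 0.9797 to 0.9818 for R1 to R4.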

How the results depend on the processing

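The number of well-expressed features past an adjusted predose p of 0.05 was 0 under every alternative. The count at an unadjusted p under 0.05, 224, became 394 with only these features in the fit and 340 with the methods' test. It was 333 with a trend in the prior, 279 with array weights and 169 to 290 when 1 array was left out. It was 383 and 112 with thresholds of 500 and 2000 and 124 with 1 feature per gene. The thresholds and the 1 feature per gene change the set that is counted. Their counts, here and below, cannot be compared directly with the main ones. The methods' selection, 2 features, kept 9 and 0 at thresholds of 500 and 2000, 1 with 1 feature per gene, 1 with the ratio of arithmetic means and 0 to 2 when 1 array was left out. The postdose count of 33 was 2 on intensities as deposited, 252 with only these features in the fit, 240 with a trend in the prior, 55 with array weights, 1 with the replicate block, 0 with the methods' test and 0 to 52 when 1 array was left out. The cause was not tested. The replicate block gave 174 features at an unadjusted predose limma p under 0.05. The deviations of same-numbered resistant and susceptible rats, which are different animals, correlated at -0.125 to 0.124. Whether predose and postdose arrays of the same number came from the same rat was not tested. The interferon level as a covariate was chosen after seeing the data. Among 90 named genes, 32 turned sign under some alternative, and the smallest adjusted p was 0.319 (Gpr107 without S1).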
